A study of Mus musculus with 8 samples.

Results

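The genes described here encode 5 secreted ligands of the fibroblast growth factor (FGF) family (*Fgf1*, *Fgf2*, *Fgf7*, *Fgf10* and *Fgf18*), 3 FGF receptors (*Fgfr1*, *Fgfr2* and *Fgfr3*), hepatocyte growth factor (*Hgf*) and its receptor *Met*. They were taken by gene symbol from the deposited count table and make up 10 of its 54532 entries. The list was drawn up with earlier results of these data known. The table holds RNAseq counts of primary lung fibroblasts (pFBs) from female mice on the C57/black background, with 4 libraries of wild type (WT) mice and 4 of mice homozygous (HOMO) for transgenic human IGFBP5 (hIGFBP5), an insulin-like growth factor binding protein. The transgene was placed by CRISPR/Cas9 knock-in under the ubiquitously active Ef1a1 promoter, so it is not limited to fibroblasts. The pFBs grew out of minced lung in culture and received no treatment. The age of the mice and the number of mice behind the libraries are not given in the sources used here, so n counts libraries, and p-values measure the spread between libraries, which may in part be technical. The human transgene is not an entry of this mouse table and was not checked here.

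FGFs bind receptor tyrosine kinases at the cell surface together with heparan sulfate chains, and the bound receptor signals through docking proteins to the MAPK and PI3K pathways. Splice forms of the receptors differ in the ligands they take, and FGF7 and FGF10 are classically made by mesenchymal cells and act on the epithelial form of FGFR2. HGF is likewise a mesenchymal product, secreted as an inactive precursor that is cleaved before it activates MET, and in the lung all of these ligands are known for their part in branching, repair and the exchange of signals between fibroblasts and epithelium.

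Between 17236521 and 29028769 reads were counted in the WT libraries (median 20786062) and between 19009027 and 31987790 in the HOMO libraries (median 20589022). Levels are given as CPM, that is, counts relative to library sizes adjusted by the TMM method, and 3 counts, taken as the floor of counting, stood between 0.0908 and 0.172 CPM. Some libraries lay very close together. The biological coefficient of variation was 7.65% or less for each of 3 pairs (WT1 with WT2, HOMO1 with HOMO2, HOMO3 with HOMO4) and at least 30.0% for the other 9 pairs within a genotype. The near-identical pairs still differed by more than sampling noise and were kept as separate libraries, and results are also given with each pair summed. The fibroblast markers were abundant in all 8 libraries, with a sum over 10 markers between 18460 and 31700 CPM.

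Promoters are shown for 3 genes. *Fgf2* was the gene called between the genotypes, and *Fgf7* and *Hgf* separated the same WT libraries in opposite directions. The sequences are from RefSeq on GRCm38.p6, run from 250 bases before to 50 bases after the transcription start, and lie on the plus strand, with *Fgf2* at chr3:37348403-37348702, *Fgf7* at chr2:126034408-126034707 and *Hgf* at chr5:16553245-16553544. Capitals mark matches to any of 5 motifs searched on both strands, namely a TATA box (TATAAA), a GC box (GGGCGG), an AP-1 site (TGANTCA), an Egr1 site (GCGNGGGCG) and an E-box (CACGTG).
Fgf2: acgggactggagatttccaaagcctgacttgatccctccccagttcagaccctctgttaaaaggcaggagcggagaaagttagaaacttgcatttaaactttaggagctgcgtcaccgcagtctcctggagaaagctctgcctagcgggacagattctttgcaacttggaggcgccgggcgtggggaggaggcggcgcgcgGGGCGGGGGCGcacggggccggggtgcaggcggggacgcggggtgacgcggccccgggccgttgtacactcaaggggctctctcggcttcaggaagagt
Fgf7: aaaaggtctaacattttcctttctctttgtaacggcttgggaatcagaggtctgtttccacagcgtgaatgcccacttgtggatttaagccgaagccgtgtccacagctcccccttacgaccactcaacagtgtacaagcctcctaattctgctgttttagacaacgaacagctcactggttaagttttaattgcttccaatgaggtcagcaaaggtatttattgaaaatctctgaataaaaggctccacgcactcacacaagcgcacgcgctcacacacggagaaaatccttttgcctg
Hgf: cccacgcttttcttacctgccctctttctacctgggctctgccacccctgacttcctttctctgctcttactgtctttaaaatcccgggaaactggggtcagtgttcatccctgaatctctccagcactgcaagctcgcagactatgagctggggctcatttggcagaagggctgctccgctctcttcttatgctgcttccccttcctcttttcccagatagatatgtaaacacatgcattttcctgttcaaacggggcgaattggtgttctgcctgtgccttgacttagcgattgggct

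The *Fgf2* window had 62.7% GC and 24 CpG pairs, and held a GC box starting at position -49 and an overlapping Egr1 site starting at -47. A GC box was found in 35.7% and an Egr1 site in 5.55% of 32851 mouse promoters of the same length, whose median GC content was 52.7%. The window lies inside the *Fgf2* gene as GENCODE draws it, since that annotation starts the gene further upstream. The *Fgf7* window had 45.7% GC and 11 CpG pairs, the *Hgf* window 51.3% GC and 7 CpG pairs, and neither held these letters of any motif. *Hgf* has a further RefSeq promoter, at chr5:16553651-16553950, with 51.3% GC and 6 CpG pairs, which also held none of these letters. A TATA box was found in 13.6%, an AP-1 site in 7.81% and an E-box in 7.15% of all promoters. The *Fgf2* matches were not particular to the called gene. An Egr1 site, starting at -63, was also found for *Fgfr3*. GC boxes were found for *Fgfr3*, *Met*, *Fgf18* and *Fgf10*, none of which was called. Promoter entries of 8 of the 10 genes were used. *Fgfr1* had none, and for these genes entries on chromosome 18, where *Fgf1* lies, were left out. These matches describe letters in the window, and no binding was measured.

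Of the 10 genes, *Fgf2* was downregulated in HOMO pFBs and 9 were not called. All 10 passed the filter on low counts. The fold changes of 8 genes were negative and those of *Fgf7* and *Met* positive, with a median log2 fold change of -0.90 against -0.04 over all 14150 genes tested. A gene was called when edgeR's quasi-likelihood F test gave a Benjamini-Hochberg adjusted p under 0.05 over all genes tested and the absolute log2 fold change was above 0.6. By this rule 12.1% of all tested genes were called, and 6.18% were called as lower in HOMO, so 1 of 10 is no more than the background. For 3 of the 10 genes (*Fgf1*, *Fgf2* and *Met*) no WT library overlapped the HOMO range, against 27.3% of all tested genes. At an unadjusted p under 0.05, edgeR gave 5 of the 10 (*Fgf1*, *Fgf2*, *Fgf10*, *Hgf* and *Met*), against 32.3% of all tested genes. *Fgf1* passed the filter through its WT libraries alone, so its lower level in HOMO adds no independent support to either count. In 9 of the 10 genes the log2 CPM spanned a wider range in WT than in HOMO, as it did in 83.2% of all tested genes. For *Fgf2* both genotypes spanned 1.83-fold.

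**Figure D1:**
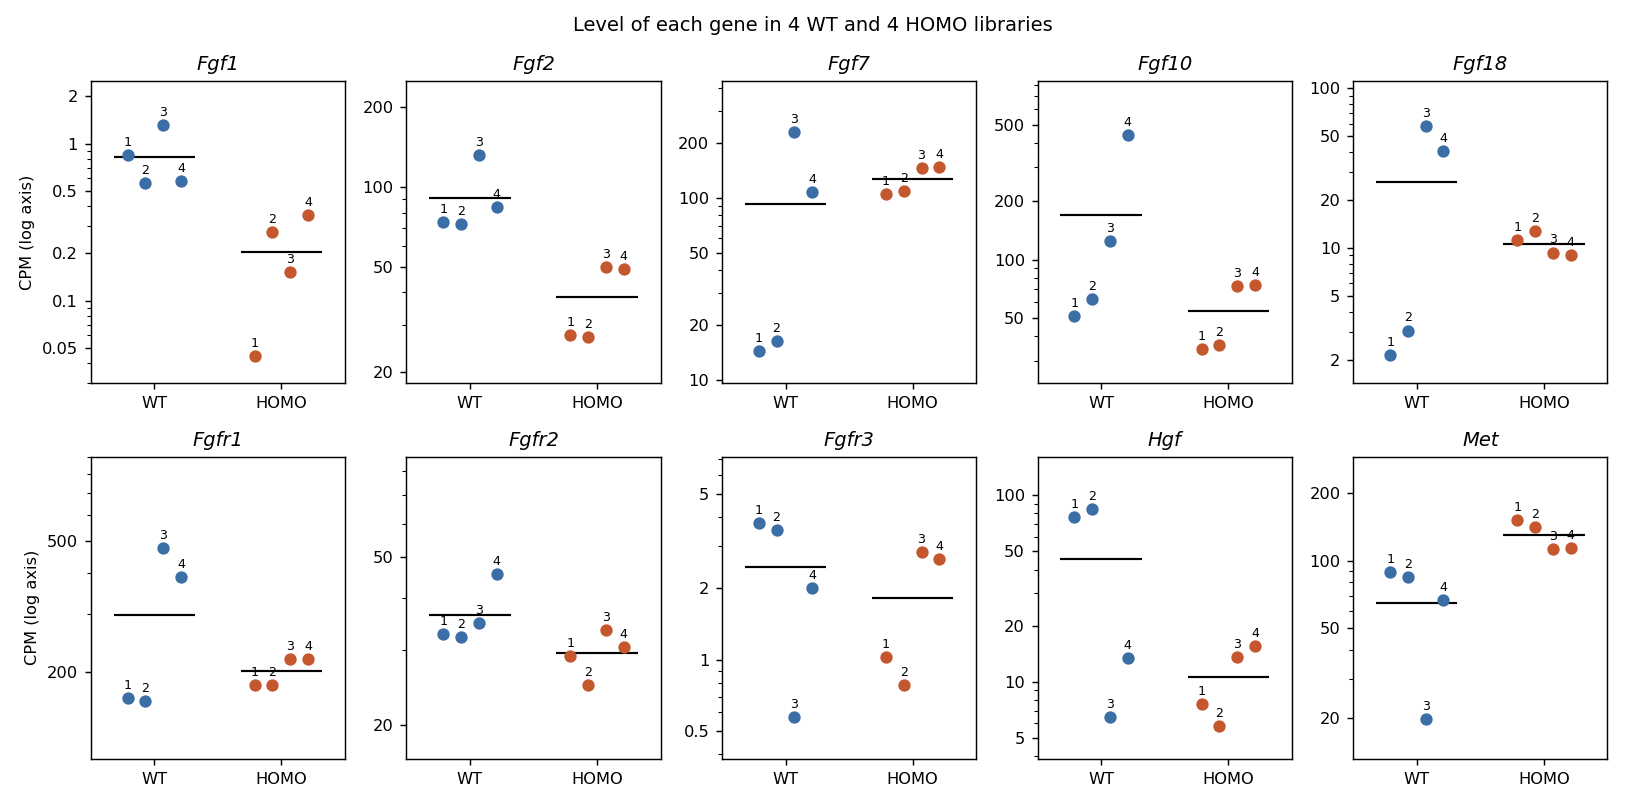
Level of each gene in CPM (log axis) in the 4 WT and 4 HOMO libraries, where points are libraries with their replicate number and lines are the means of 4 libraries. The genotypes separate for *Fgf1*, *Fgf2* and *Met*, while for *Fgf7*, *Fgf18* and *Hgf* the WT libraries lie both above and below the HOMO libraries, or spread well past them.

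*Fgf2* encodes basic FGF, a broadly acting mitogen for fibroblasts and endothelium that leaves the cell without a signal peptide. It lies on chromosome 3 from 37348346 to 37410108 on the plus strand (GRCm38, GENCODE M21). Its level was 73.5, 72.4, 132.5 and 84.0 CPM in WT1 to WT4, and 27.6, 27.1, 49.6 and 49.1 CPM in HOMO1 to HOMO4. All 4 HOMO libraries stood below all 4 WT libraries, and WT3 was the highest of all. The mean fell from 90.6 ± 28.4 to 38.4 ± 12.7 CPM (SD, n = 4), a log2 fold change of -1.24 (SE 0.29, edgeR adjusted p = 0.0281), or a 2.36-fold lower level. The call was lost without HOMO1 (log2 fold change -1.11, edgeR adjusted p = 0.0919), without HOMO2 (-1.10, edgeR adjusted p = 0.0912) and when near-identical libraries were summed (-1.31, edgeR adjusted p = 0.326), and over all alternatives the log2 fold change stayed between -1.39 and -0.86.

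In these bulk libraries, fewer cells that express a gene and less RNA per cell cannot be told apart, here or for any gene below. The tested genes of chromosome 3, 683 in number, had a median log2 fold change of -0.23, and their median level in WT3 stood 0.28 on the log2 scale above the mean of the WT libraries. The annotated exons of *Fgf2* share 9.44% of their bases with *Nudt6* on the opposite strand, a gene counted at only 0.710 to 1.80 CPM over the 8 libraries (log2 fold change -0.68, SE 0.33, edgeR adjusted p = 0.190). Whether the counting used the strand is not stated. By the mean absolute difference of centred log2 CPM over the 8 libraries, the tested genes most like *Fgf2* were *Gm17501* (0.0808), *Uqcrq* (0.12) and *Snrnp25* (0.121), which had log2 fold changes of -1.22, -1.10 and -1.37 (edgeR adjusted p = 0.0488, 0.0301 and 0.0165).

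*Fgf1* encodes acidic FGF, which can bind every FGF receptor. It lies on chromosome 18 from 38838673 to 38929472. Its counts were 15, 13, 23 and 15 in WT1 to WT4, against 1, 9, 3 and 7 in HOMO1 to HOMO4. Those of HOMO1 and HOMO3 were at or under the floor of 3 counts. Each WT library exceeded each HOMO library, at 0.826 ± 0.354 against 0.205 ± 0.135 CPM (SD, n = 4). The log2 fold change was -1.96 (SE 0.58) and was not called by edgeR (adjusted p = 0.0557). The gene passed the filter through its WT libraries alone, since all 4 of them and 0 HOMO libraries reached the required 0.486 CPM. Median log2 fold change over the 377 tested genes of its chromosome, 18, was -0.31.

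*Fgf7*, keratinocyte growth factor, is a fibroblast product that acts on epithelium, encoded on chromosome 2 from 126034658 to 126091185. It was measured at 14.5, 16.5, 229 and 107 CPM in WT1 to WT4, and at 105, 109, 146 and 147 CPM in HOMO1 to HOMO4. The WT libraries spanned 15.8-fold and the HOMO libraries 1.40-fold, with WT1 and WT2 far below every other library and WT3 above all. The means of 91.8 ± 101 and 127 ± 23.1 CPM (SD, n = 4) did not differ beyond this spread, with a log2 fold change of 0.46 (SE 0.78, edgeR adjusted p = 0.719).

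*Fgf10*, the ligand that drives outgrowth of the lung buds during development (chromosome 13 from 118669791 to 118792115), was measured at 51.0, 62.5, 125 and 442 CPM in WT1 to WT4. In HOMO1 to HOMO4 it was 34.3, 36.1, 72.5 and 74.2 CPM. WT4 stood apart at the top, while WT1 and WT2 lay within the range of the HOMO libraries. The means were 170 ± 184 and 54.3 ± 22.04 CPM (SD, n = 4), and the log2 fold change of -1.65 (SE 0.68) was not called by edgeR (adjusted p = 0.136). Without WT4 the log2 fold change was -0.55 (edgeR adjusted p = 0.379), and leaving out any other library gave between -1.95 and -1.48. The 537 tested genes of chromosome 13 had a median log2 fold change of -0.21.

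*Fgf18*, a ligand with roles in lung alveolar development and in cartilage (chromosome 11 from 33117430 to 33147400), was measured at 2.14, 3.05, 58.4 and 40.4 CPM in WT1 to WT4, and at 11.2, 12.9, 9.38 and 9.07 CPM in HOMO1 to HOMO4. All 4 HOMO libraries lay above WT1 and WT2 and below WT3 and WT4, and the WT libraries spanned 27.3-fold. The log2 fold change was -1.29 (SE 0.92, edgeR adjusted p = 0.364). With limma-voom and sample quality weights the sign turned (1.73, adjusted p = 0.00206).

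Set side by side per length of exon (CPM per kb), the mixture of ligands varied more among the WT libraries than among the HOMO libraries. Every HOMO library has a near-identical partner, while in WT only WT1 and WT2 do. The likeness of the HOMO mixtures therefore counts for less than that of 4 independent libraries. Nor is it particular to these ligands, since 83.2% of all tested genes spanned a wider range of log2 CPM in WT. Over 18 secreted FGF ligands, the sum was 32.4, 36.8, 171 and 212 CPM per kb in WT1 to WT4 and 77.7, 80.3, 95.3 and 98.8 in HOMO1 to HOMO4. *Fgf7* accounted for 13.7, 13.8, 41.3 and 15.6% of this sum in WT1 to WT4, and for 41.5, 41.7, 47.2 and 45.9% in HOMO1 to HOMO4. It was the largest contributor in all 4 HOMO libraries and in WT3, and *Fgf10* was the largest in WT1, WT2 and WT4. *Fgf10* made up 34.2, 36.9, 15.9 and 45.4% in the WT libraries and between 9.60 and 16.5% in the HOMO libraries. *Fgf2* made up 33.4, 29.0, 11.4 and 5.85% in the WT libraries and between 4.99 and 7.68% in the HOMO libraries, and *Fgf18* was highest in WT3 at 28.8%. A ligand outside the 5, the hormone-like *Fgf23*, reached 19.7 to 29.2% of the sum in the HOMO libraries and 0.167 to 15.8% in the WT libraries.

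**Figure D2:**
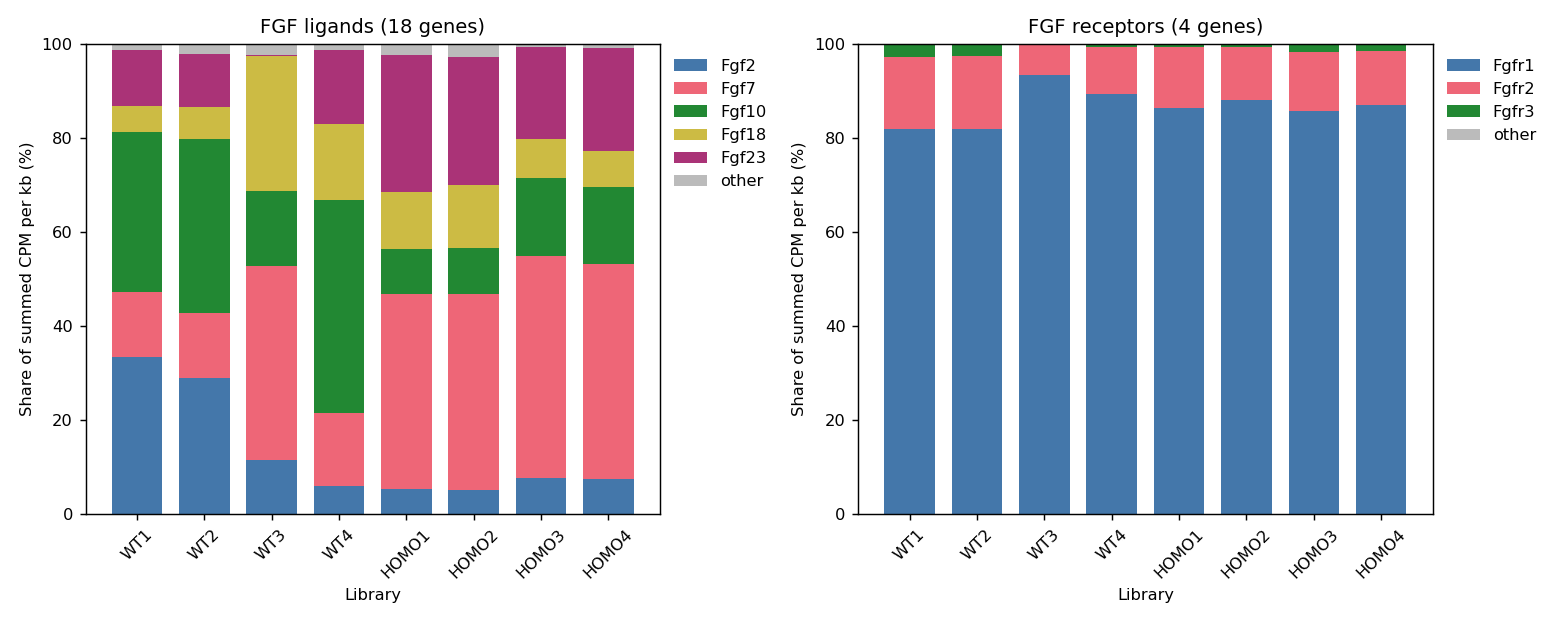
Share (%) of the summed CPM per kb that each gene took in each library, for 18 secreted FGF ligands on the left and 4 FGF receptors on the right, stacked to 100%. *Fgf7* takes between 41.5 and 47.2% of the ligand sum in the HOMO libraries, and *Fgfr1* takes over 80% of the receptor sum in every library. Each HOMO library has a near-identical partner, so the HOMO bars are not independent of each other.

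*Fgfr1*, the main FGF receptor of mesenchymal cells, was the most abundant FGF receptor in every library. It was measured at 168, 164, 476 and 389 CPM in WT1 to WT4, and at 184, 183, 220 and 220 CPM in HOMO1 to HOMO4. WT1 and WT2 lay just below the HOMO libraries, and WT3 and WT4 above them. The means were 299 ± 158 and 202 ± 21.4 CPM (SD, n = 4), with a log2 fold change of -0.57 (SE 0.35, edgeR adjusted p = 0.295), and with limma-voom and sample quality weights the sign turned (0.30, adjusted p = 0.0943). *Fgfr1* lies on chromosome 8 from 25513654 to 25575718, and on this chromosome the 790 tested genes had a median log2 fold change of 0.37.

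*Fgfr2*, which in its epithelial form receives FGF7 and FGF10 (chromosome 7 from 130162451 to 133123350), was the steadiest of the 10 genes in WT. Its level was 32.7, 32.3, 34.8 and 45.5 CPM in WT1 to WT4 and 29.1, 24.9, 33.6 and 30.6 CPM in HOMO1 to HOMO4. The groups overlapped through HOMO3, and the means of 36.3 ± 6.22 and 29.5 ± 3.63 CPM (SD, n = 4) gave a log2 fold change of -0.30 (SE 0.16, edgeR adjusted p = 0.238). Counts per gene do not separate its epithelial and mesenchymal splice forms, and 3.04% of its exon bases are shared with *Ctbp2* on the same strand. The 1045 tested genes of chromosome 7 had a median log2 fold change of -0.29, close to that of *Fgfr2*.

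*Fgfr3*, a receptor best known for restraining bone growth (chromosome 5 from 33721674 to 33737068), was low in all libraries. Its counts were 67, 82, 10 and 52 in WT1 to WT4, against 23, 26, 56 and 53 in HOMO1 to HOMO4. WT3 was the lowest at 0.574 CPM and WT1 the highest at 3.77 CPM, and the groups overlapped throughout (log2 fold change -0.44, SE 0.63, edgeR adjusted p = 0.663). Of the summed CPM per kb of 4 FGF receptors, *Fgfr1* took 81.9 to 93.3% in WT and 85.8 to 88.0% in HOMO, *Fgfr2* 6.52 to 15.5% and 11.4 to 13.1%, and *Fgfr3* at most 2.54% and 1.53%.

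*Hgf* lies on chromosome 5 from 16553495 to 16620152. It was measured at 76.6, 84.9, 6.43 and 13.4 CPM in WT1 to WT4, and at 7.58, 5.78, 13.5 and 15.5 CPM in HOMO1 to HOMO4. WT1 and WT2 were well above all other libraries, while WT3 and WT4 fell among the HOMO libraries. In *Fgf7*, WT1 and WT2 were instead the lowest of all. The means were 45.3 ± 41.1 and 10.6 ± 4.67 CPM (SD, n = 4). The log2 fold change of -2.10 (SE 0.78) was the most negative of the 10 and was not called by edgeR (adjusted p = 0.106). Without WT3 it was called (-2.46, edgeR adjusted p = 0.0334). *Gm43489*, which shares 6.74% of the exon bases of *Hgf* on the same strand, had at most 46 counts in a library.

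*Met*, the receptor tyrosine kinase for HGF (chromosome 6 from 17463800 to 17573980), was measured at 88.6, 84.7, 19.8 and 66.9 CPM in WT1 to WT4, and at 152, 140, 112 and 113 CPM in HOMO1 to HOMO4. Every HOMO library exceeded every WT library, and WT3 stood lowest. The means were 65.0 ± 31.6 and 130 ± 19.8 CPM (SD, n = 4), a log2 fold change of 0.99 (SE 0.40) that edgeR did not call (adjusted p = 0.126). Without WT3 the log2 fold change was smaller, at 0.69, and was called (edgeR adjusted p = 0.0240).

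**Figure D3:**
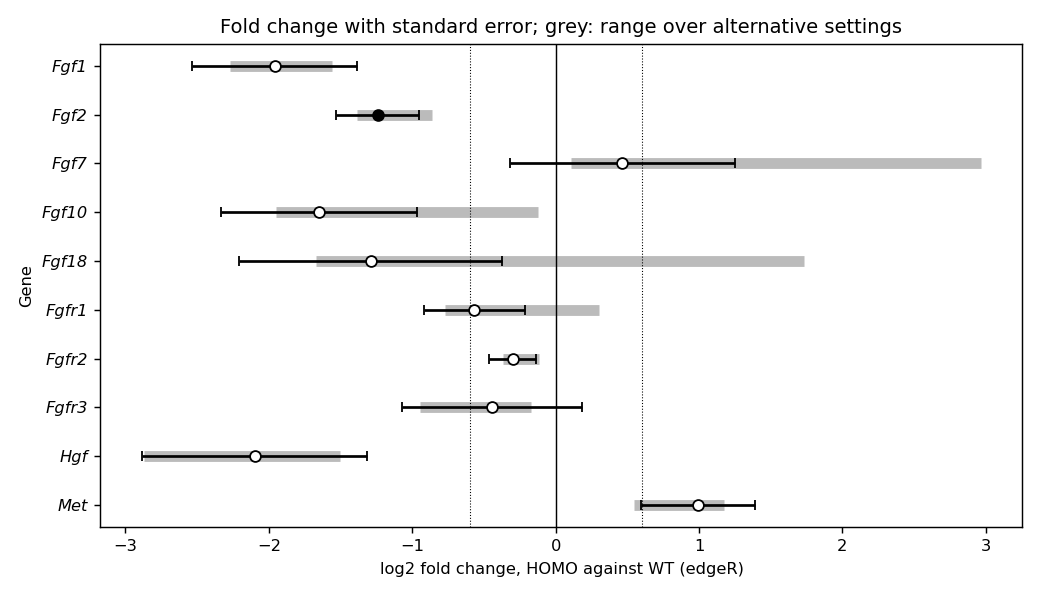
Log2 fold change of HOMO against WT for each gene (edgeR), with bars for the standard error, a filled point for the called gene, dotted lines at the fold change threshold of 0.6 in either direction and grey bands for the range over alternative settings. *Fgf2* is the filled point at -1.24, and the bands of *Fgf18* and *Fgfr1* cross 0.

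How many of the 10 genes were called depended on the test. DESeq2 called 4 (*Fgf1*, *Fgf2*, *Fgf10* and *Hgf*), all as lower in HOMO, against 16.5% of all genes it tested. For *Fgf10* and *Hgf* its adjusted p-values were 0.0473 and 0.0191, and for *Fgf1* it was 0.0208. Limma-voom with sample quality weights called 5, with *Fgf1*, *Fgf2* and *Hgf* lower and *Fgf7* and *Fgf18* higher, against 25.3% of all tested genes. For *Fgf7* this test gave a log2 fold change of 2.96 (adjusted p = 4.13e-05). Without WT3, edgeR called 3 (*Fgf2*, *Hgf* and *Met*), against 15.0% of all tested genes, and it called 0 without HOMO1, without HOMO2 or with near-identical libraries summed, against 3.52, 3.56 and 0.0% of all tested genes. In each of those 3 fits, *Fgf1* and *Fgf2* were the 2 of the 10 genes with an unadjusted p under 0.05 by edgeR. Over all genes tested, 3311 of 14405 without HOMO1 and 3309 of 14382 without HOMO2 had such a p. With near-identical libraries summed it was 2057 of 16130. As *Fgf1* passed the filter of the main fit through its WT libraries alone, its place in these counts is not independent support.

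Ordered by mean CPM per kb in the WT libraries, the genes ran from *Fgf10* (37.0 ± 40.1) through *Fgfr1* (30.3 ± 16.0), *Fgf7* (28.3 ± 31.2), *Fgf18* (21.9 ± 23.6), *Fgf2* (13.4 ± 4.19), *Met* (8.47 ± 4.11), *Hgf* (6.31 ± 5.72) and *Fgfr2* (3.52 ± 0.602) to *Fgfr3* (0.345 ± 0.207) and *Fgf1* (0.151 ± 0.0648; SD, n = 4). The ranges of neighbours in this order overlapped, except for *Fgfr2* and *Fgfr3*. In the HOMO libraries *Fgf7* came first (39.0 ± 7.10), above *Fgfr1* (20.4 ± 2.17), *Met* (16.9 ± 2.58), *Fgf10* (11.8 ± 4.79) and *Fgf18* (8.95 ± 1.48). *Fgf2* (5.65 ± 1.87), *Fgfr2* (2.86 ± 0.352), *Hgf* (1.48 ± 0.650), *Fgfr3* (0.255 ± 0.150) and *Fgf1* (0.0375 ± 0.0246) followed (SD, n = 4). Here neighbours overlapped only from *Fgfr1* to *Fgf18*, and the other neighbours were separate.

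Markers of other cell types moved with several of these genes among the WT libraries, and their part in the results was not tested. The sum of 7 macrophage markers was 110, 141, 1871 and 1098 CPM in WT1 to WT4 and between 23.4 and 156 CPM in HOMO. Of its 6 tested markers edgeR called 0 (adjusted p between 0.0665 and 0.449), with 4 at an unadjusted p under 0.05, all 6 log2 fold changes negative and a median of -2.35. DESeq2 called 3 of them and limma-voom with weights 0. The libraries high in these markers, WT3 and WT4, were also those with the most *Fgf18* and *Fgfr1*. Within HOMO, the macrophage sum was 134 and 156 CPM in HOMO3 and HOMO4 against 24.2 and 23.4 CPM in HOMO1 and HOMO2. There *Fgfr1* was also higher in HOMO3 and HOMO4 (220.3 and 220.4 against 183.5 and 183.1 CPM). *Fgf18* was instead lower in them (9.38 and 9.07 against 11.2 and 12.9 CPM). The sum of 5 proliferation markers was 930, 834, 129 and 53.8 CPM in WT1 to WT4 and 139, 129, 692 and 638 CPM in HOMO1 to HOMO4, with 0 of 5 called by edgeR (adjusted p of at least 0.650), DESeq2 or limma-voom, and 0 at an unadjusted p under 0.05. WT1 and WT2 were the highest there and also the highest in *Hgf*, at 76.6 and 84.9 CPM. Within HOMO, the libraries with the higher proliferation sums, HOMO3 and HOMO4, had 13.5 and 15.5 CPM of *Hgf*. HOMO1 and HOMO2 had 7.58 and 5.78 CPM.

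The sum of 6 smooth muscle and pericyte markers was 833, 774, 2708 and 898 CPM in WT1 to WT4 and 199, 206, 1453 and 1428 CPM in HOMO1 to HOMO4, with 1 of 6 called, as lower. The called gene, *Rgs5*, was low in most libraries, with counts of 59, 90, 12 and 932 in WT1 to WT4. In HOMO1 to HOMO4 it had 2, 0, 13 and 10. The other 5 were not called (edgeR adjusted p of at least 0.504). The sum of 6 mesothelial markers was 70.3, 77.1, 248 and 216 CPM in WT1 to WT4 and between 239 and 320 CPM in HOMO. Of these, 2 (the Wilms tumour gene *Wt1*, not to be read as the library, and *Bnc1*) were upregulated in HOMO, while the other 4 were not called (log2 fold changes between -0.62 and 0.22), with a list median of 0.16. The mesothelial sum and *Fgf7* were both lowest in WT1 and WT2. Within HOMO they went opposite ways. The sum was 318.5 and 320.1 CPM in HOMO1 and HOMO2 against 239.1 and 254.0 CPM in HOMO3 and HOMO4. *Fgf7* was 105 and 109 CPM in HOMO1 and HOMO2 against 146 and 147 CPM in HOMO3 and HOMO4. Epithelial markers summed to at most 36.5 CPM, with *Nkx2-1* at 0 counts in all libraries but HOMO3. Other epithelial markers were counted mainly in single HOMO libraries. *Scgb1a1* had 110 and 130 counts in HOMO2 and HOMO3, and *Sftpc* 48 and 99, with at most 3 elsewhere for each. *Krt8* and *Epcam* had 96 and 45 counts in HOMO4, against at most 16 and 1 elsewhere. These genes did not pass the filter on low counts. Endothelial markers summed to between 2.31 and 8.09 CPM, and *Pecam1* had at most 8 counts. Of the tested markers of these groups, 1 of 4 epithelial genes (*Cdh1*) was higher, while *Krt19*, the most abundant of them in WT1 and WT2, had a log2 fold change of -3.06 (edgeR adjusted p = 0.0856). *Cdh1* had counts of 1, 8, 0 and 13 in WT1 to WT4 and of 26, 47, 37 and 44 in HOMO1 to HOMO4, and passed the filter through its HOMO libraries. DESeq2 called 5 and limma-voom with weights 4 epithelial genes. Of the others, 0 of 2 endothelial genes were called by edgeR (adjusted p of at least 0.524), DESeq2 or limma-voom, with 0 at an unadjusted p under 0.05, and 1 of 10 fibroblast genes (*Vim*) was lower.

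**Figure D4:**
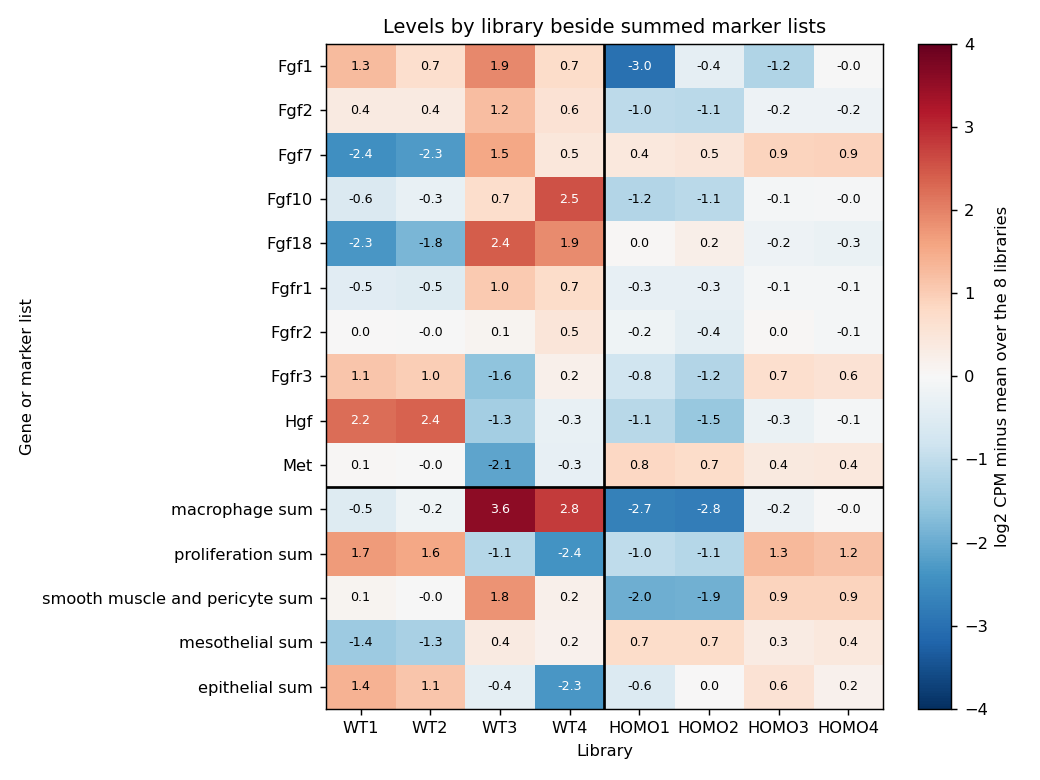
Log2 CPM of the 10 genes and of 5 summed marker lists in each library, as the difference from the mean over the 8 libraries, in colour and figures. WT3 and WT4 are highest in the macrophage sum (3.6 and 2.8) and in *Fgf18* (2.4 and 1.9), whereas WT1 and WT2 are highest in *Hgf* (2.2 and 2.4).

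Of the 13 other secreted FGF ligands only 2 were abundant enough to test, and 5 had no count in any library. *Fgf23* was measured at 6.98, 7.55, 0.516 and 60.7 CPM in WT1 to WT4 and between 34.1 and 41.1 CPM in HOMO (log2 fold change 1.02, SE 0.99, edgeR adjusted p = 0.513). *Fgf9*, a ligand of the developing mesothelium and epithelium, had a log2 fold change of -0.93 (SE 0.76, edgeR adjusted p = 0.428). Neither was called by edgeR or DESeq2 or had an unadjusted p under 0.05, and limma-voom with weights called 1. Of the 4 intracellular FGF homologous factors, which do not act through FGF receptors in the usual way, *Fgf11* was tested and not called (log2 fold change 0.23, edgeR adjusted p = 0.705), DESeq2 called 0 and limma-voom with weights 1 of these, and *Fgf14* had 48 counts in WT3 and at most 3 elsewhere.

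Among 6 other receptors, co-receptors and binding proteins, the carrier protein gene *Fgfbp3*, whose product releases FGFs from the matrix, was downregulated. It was measured at 11.2, 11.6, 18.3 and 9.76 CPM in WT1 to WT4 and at 3.17, 3.99, 5.22 and 6.47 CPM in HOMO1 to HOMO4, without overlap (log2 fold change -1.43, SE 0.30, edgeR adjusted p = 0.0199). Like *Fgf2*, it was not called without HOMO1 or HOMO2 or with near-identical libraries summed, when 0 genes of this list were. *Fgfrl1*, a receptor without a kinase domain, had a log2 fold change of -0.67 (SE 0.25, edgeR adjusted p = 0.102). *Fgfr4*, *Kl* and *Klb*, the remaining receptor and the co-receptors of hormone-like FGFs, had at most 4 counts in a library.

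Heparan sulfate holds FGFs and HGF at the cell surface. Of 26 core protein and enzyme genes 22 were tested, 4 were downregulated and 0 upregulated, with a median log2 fold change of -0.45 against -0.04 over all tested genes. For this and every other list the background was 12.1% of all tested genes called, with 6.18% called as lower in HOMO. The enzyme gene *Glce* rose by 0.46 (SE 0.12, edgeR adjusted p = 0.0348), under the fold change threshold. Without that threshold 5 genes of the list were called, 1 of them as higher. The core protein gene *Sdc3* was measured at 150, 142, 93.5 and 148 CPM in WT1 to WT4 and at 17.3, 13.1, 52.6 and 47.1 CPM in HOMO1 to HOMO4 (log2 fold change -2.04, SE 0.45, edgeR adjusted p = 0.0238). *Ext1*, an enzyme that builds the chain, fell by 1.02 on the log2 scale (SE 0.19, edgeR adjusted p = 0.0130), and the core protein genes *Gpc4* and *Sdc2* fell by 0.90 and 0.85 (edgeR adjusted p = 0.0389 and 0.0452). The count was 0 without HOMO1 or HOMO2 and 2 without HOMO3 or HOMO4.

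Downstream of the receptors, all 14 adaptor genes were tested, 2 were upregulated and 0 downregulated, with a median log2 fold change of 0.14. *Gab1*, a docking protein shared by MET and the FGF receptors, was measured at 40.8, 47.8, 40.5 and 39.3 CPM in WT1 to WT4 and at 143, 146, 115 and 107 CPM in HOMO1 to HOMO4. Its log2 fold change was 1.60 (SE 0.15, edgeR adjusted p = 0.00111). *Cblb*, a ubiquitin ligase that limits receptor tyrosine kinase signalling, was between 11.2 and 20.5 CPM in WT and between 48.5 and 55.3 CPM in HOMO (log2 fold change 1.63, SE 0.19, edgeR adjusted p = 0.00299). With each library left out in turn, 2 or 3 adaptor genes were called, and with near-identical libraries summed 0 were.

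Genes that FGF signalling is known to induce, which include its feedback inhibitors, showed 1 upregulated and 0 downregulated gene among 14 tested of 15, with a median log2 fold change of 0.08. The called gene was *Flrt2*, a membrane protein that binds FGF receptors, at 12.8, 11.02, 34.3 and 19.9 CPM in WT1 to WT4 and between 44.0 and 49.4 CPM in HOMO (log2 fold change 1.26, SE 0.33, edgeR adjusted p = 0.0416). It was lost in 7 of the 8 fits that left out a library, all but that without WT3. The abundant feedback inhibitors *Spred1* and *Spry2* had log2 fold changes of 0.12 and 0.08 (SE 0.13 and 0.28, edgeR adjusted p = 0.576 and 0.878).

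Of 10 genes that cleave the HGF precursor, inhibit that cleavage or belong to the related MSP axis, 6 were tested, 2 were upregulated and 0 downregulated, with a median log2 fold change of 0.17. The 4 genes not called went both ways. *St14* and *Plau* had log2 fold changes of -2.14 and -0.71 (SE 0.66 and 0.20, edgeR adjusted p = 0.0651 and 0.0519), *Plat* and *Spint2* of 0.19 and 0.15. DESeq2 called 4 genes of the list, 2 of them as higher. *Spint1*, an inhibitor of the proteases that activate HGF, was low throughout, with counts of 2, 6, 11 and 11 from WT1 to WT4 against 33, 51, 32 and 43 from HOMO1 to HOMO4 (log2 fold change 2.23, SE 0.47, edgeR adjusted p = 0.0208). Among WT libraries only WT3 reached the 0.486 CPM that the filter required, so the gene passed through its HOMO libraries. *Mst1r*, the receptor most closely related to MET, was measured at 7.54, 7.34, 7.52 and 2.13 CPM in WT1 to WT4 and at 20.8, 18.6, 18.4 and 21.8 CPM in HOMO1 to HOMO4 (log2 fold change 1.70, SE 0.37, edgeR adjusted p = 0.0223). The number upregulated was 1 without WT2, and 0 without HOMO1, HOMO2 or HOMO4 or with near-identical libraries summed. Without HOMO4 a single gene of the list was called, as lower.

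**Figure D5:**
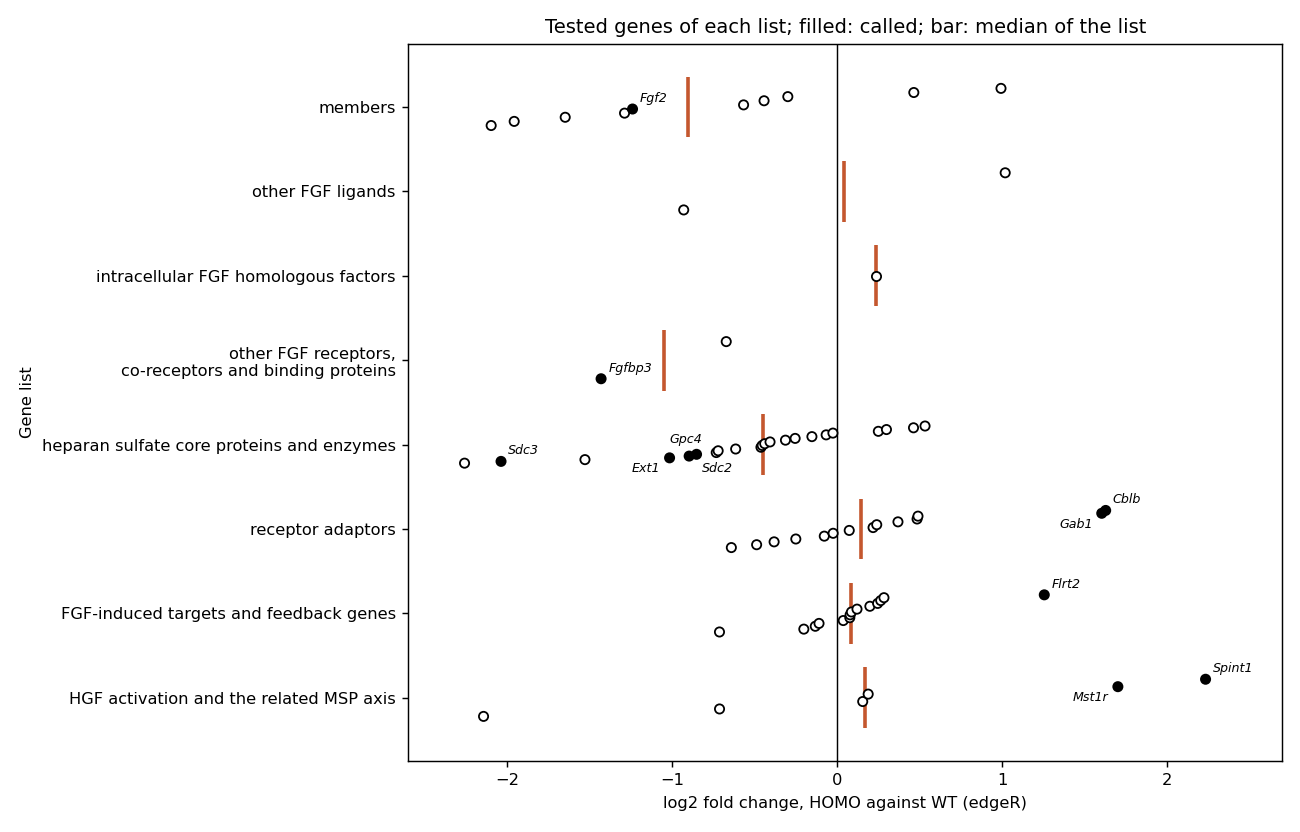
Log2 fold change of HOMO against WT (edgeR) for every tested gene of the 10 described here (top line) and of 7 related gene lists, with filled points for called genes and vertical bars for list medians. The called heparan sulfate genes lie to the left of 0, with *Sdc3* at -2.04, and the called adaptor, target and HGF axis genes to the right, up to *Spint1* at 2.23.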

How the data were processed

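RNAseq was measured in 4 WT and 4 HOMO libraries of pFBs, grouped by the genotype in their labels. The deposited gene counts are not normalized: the authors used fastp for trimming, STAR for alignment to mm10 and featureCounts for counting, and the submitters' processing notes also name CASAVA and DESeq2, without versions. The deposited table carries the word "outlierout", and what was left out is not stated. Of 54532 entries, 27324 had counts, and 100 symbols stood on more than 1 entry.

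The 14150 genes passing filterByExpr by genotype were tested with edgeR 4.0.16 (TMM, quasi-likelihood F test, no covariates) in R 4.3.3. Standard errors (SE) were obtained from the fold change and the root of its F statistic. Log2 CPM has a prior count of 2. Merged exons of GENCODE M21 (GRCm38, the assembly called mm10) gave positions, shared bases and lengths. Alternatives used DESeq2 1.42.0 and limma 3.58.1, and other steps Python 3.11.15 with numpy 2.4.6, pandas 2.3.3 and matplotlib 3.10.9. The tests were also run on simulated counts with known changes, with results not given here. Those libraries were drawn independently, without near-identical pairs, so this check cannot show how often calls are false in the present design. The members, the related gene lists, the markers and the near-identical pairs were chosen with earlier results of these data known. Genes named were all 10 members and in each list the called genes (up to 4). Lists with fewer than 2 called added the 2 with the highest mean CPM. The 3 genes most like a called member were also named, and for marker lists the sums, the called genes and markers near 0. Other genes near 0, genes sharing exons with members, and further marker, heparan sulfate and HGF axis genes were added after their values were seen. Counting intervals and the floor cover counting error only. Protein and qPCR measurements were not analysed here.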

Additional observations from a re-analysis of the deposited data

Results flagged for a closer look

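Among 29 named genes tested, the 4 libraries of each genotype gave 58 groups, and in 3 of them 1 library lay further from the others than Dixon's 95% critical value for 4 values allows. Chance alone flags about 5% of groups of independent values. As the HOMO libraries lie in near-identical pairs, a single one can hardly stand apart. The number of flags therefore cannot be judged against this rate. *Gm17501*, a gene whose pattern is close to that of *Fgf2*, stood at 4.98 log2 CPM in WT3 against 4.0 to 4.13 in the other WT libraries. *Mst1r* stood at 1.15 log2 CPM in WT4 against 2.89 to 2.93 in the others. *Sdc3* stood at 6.55 log2 CPM in WT3 against 7.15 to 7.23 in the others. No cause was tested for any of the 3.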

How the results depend on the processing

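Of 312 comparisons of a value with its alternatives, 155 log2 fold changes kept their direction and side of the threshold, and 106 counts of called genes stayed within 1.5 times the count given in the text. The 10 members, with 1 called by edgeR, gave 4 with DESeq2, 5 with limma-voom and sample quality weights, 0 with near-identical libraries summed and 0 to 3 without single libraries. With limma-voom the other FGF ligands gave 1 call, the intracellular factors 1, heparan sulfate genes 7, target genes 3 and HGF axis genes 4, and the log2 fold changes of *Fgf18* (1.73) and *Fgfr1* (0.30) reversed; the cause was not tested. DESeq2 gave 7 heparan sulfate genes, 0 of them higher, and 4 HGF axis genes, 2 of them higher. With near-identical libraries summed, leaving 3 WT and 2 HOMO units, edgeR called 0 genes in every list and 0 of 16130 in all, with 2057 at an unadjusted p under 0.05, so no call in the text was kept there. Without single libraries the other ligands gave 0 to 1 calls, the other receptors and binding proteins 0 to 1, heparan sulfate genes 0 to 6, adaptors 2 to 3, targets 0 to 1 and HGF axis genes 0 to 3.

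The replicate number as a block gave 947 calls in place of 1716. Deviations of same-numbered libraries correlated at -0.09, -0.04, 0.01 and -0.12, so the numbers do not pair the libraries. Under the block, *Fgf2* was still called (-1.26, edgeR adjusted p = 0.0241), target genes gave 0 calls and HGF axis genes 1.

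Planned permutation tests for members outside the filter were not run, since all 10 passed it. Low counts limit the precision for *Fgf1* and *Fgfr3*.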
